A study of Mus musculus with 4 samples.

Results

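Very long genes hold many accessible regions that lie far from any promoter. Of the 255864 regions in the ATAC-seq count table, 15555 (6.08%) had their midpoint inside a protein-coding autosomal gene of over 500 kb and over 5 kb from every protein-coding transcript start (GENCODE M21, GRCm38). In ATAC-seq a transposase cuts and tags DNA where chromatin is open, and the number of reads at a site is taken as its accessibility. The cells were primary osteoblasts, which form bone, cultured from the skull bones of 3-day-old C57BL/6 mice. Wild-type (WT) mice, whose own alleles the labels do not detail, were set against TCKO mice, which carry Prx1-Cre and Tet1 fl/fl, Tet2 fl/fl and Tet3 fl/fl alleles. Prx1-Cre is active in limb mesenchyme and part of the skull, so cells of other origin in a culture keep their *Tet* genes. The labels gave 2 samples for WT and 2 for TCKO, and a protocol text spoke of 3 repeats. Only 1 merged column per genotype was in the table, so the spread between replicates is unknown and genotypes were not tested. Each difference below sets 1 merged library against another. The 95% interval of a ratio covers counting error only, and that of a median or a share of regions covers the spread over regions only.

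TET proteins are dioxygenases that oxidise 5-methylcytosine at CpG sites, which starts the removal of DNA methylation. Mammalian genes of this length are enriched for products of the nervous system, such as synaptic adhesion molecules, channels and scaffolds, and several of them span common fragile sites, where DNA breaks under replication stress. Their introns often carry enhancers, some for the gene itself and some for a neighbour, and in cells that do not use the gene long stretches of such introns hold little open chromatin.

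Regions whose higher count reached 100 were ranked by the ratio used throughout, the log2 of the TCKO count scaled to the WT total plus 1 over the WT count plus 1. A ratio of 0 means equal shares of the 2 libraries, and the median of all regions was 0.06. The central 200 bp is shown for the 3 that fell most, for the 3 that rose most and for the region with the most WT counts, so that the features described below can be read in the letters. Each is the plus strand of GRCm38, 5′ to 3′, and capitals mark CpG sites (CG) and the 7-letter word TGANTCA, in which N is any base. TGANTCA is the core of the sites that AP-1 and related bZIP transcription factors bind.
Slit3 (chr11:35416816-35417015): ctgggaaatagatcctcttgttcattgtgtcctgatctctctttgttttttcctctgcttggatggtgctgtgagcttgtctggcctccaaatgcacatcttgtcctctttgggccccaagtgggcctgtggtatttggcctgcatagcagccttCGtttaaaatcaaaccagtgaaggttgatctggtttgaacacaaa
Sox6 (chr7:115754353-115754552): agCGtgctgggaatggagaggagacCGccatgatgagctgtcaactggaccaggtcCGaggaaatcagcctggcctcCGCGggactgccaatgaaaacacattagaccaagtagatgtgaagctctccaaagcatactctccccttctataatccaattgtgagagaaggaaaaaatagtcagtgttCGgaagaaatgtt
Fgfr2 (chr7:130678479-130678678): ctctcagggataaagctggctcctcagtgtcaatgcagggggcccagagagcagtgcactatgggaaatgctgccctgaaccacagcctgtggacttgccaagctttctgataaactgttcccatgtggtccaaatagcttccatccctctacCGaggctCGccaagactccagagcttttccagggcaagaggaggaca
Lrp1b (chr2:42060044-42060243): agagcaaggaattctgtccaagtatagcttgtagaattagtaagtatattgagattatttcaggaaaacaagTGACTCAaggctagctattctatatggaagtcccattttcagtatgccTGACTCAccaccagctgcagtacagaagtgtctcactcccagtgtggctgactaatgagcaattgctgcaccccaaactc
Mast4 (chr13:103102655-103102854): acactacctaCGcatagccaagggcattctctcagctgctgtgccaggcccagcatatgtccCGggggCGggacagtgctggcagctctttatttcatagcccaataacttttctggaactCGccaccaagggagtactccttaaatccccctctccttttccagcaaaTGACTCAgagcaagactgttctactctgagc
Kirrel3 (chr9:34510178-34510377): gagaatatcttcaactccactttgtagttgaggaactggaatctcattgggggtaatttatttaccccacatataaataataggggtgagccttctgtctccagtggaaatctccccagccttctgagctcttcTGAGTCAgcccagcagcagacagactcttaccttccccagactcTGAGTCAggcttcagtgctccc
Smyd3 (chr1:179041931-179042130): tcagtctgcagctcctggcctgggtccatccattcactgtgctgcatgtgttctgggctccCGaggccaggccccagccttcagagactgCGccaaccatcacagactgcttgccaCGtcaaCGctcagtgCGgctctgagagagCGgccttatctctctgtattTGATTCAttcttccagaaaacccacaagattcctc

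None of the 3 falls held the bZIP word in this window, and the 3 rises held 2, 1 and 2 copies. CpG sites in the window numbered 1, 6 and 2 in the falls and 0, 4 and 0 in the rises. Over the whole regions, which were longer for the rises, they numbered 1, 6 and 2 in the falls and 2, 6 and 0 in the rises. The region in intronic *Smyd3*, which encodes a lysine methyltransferase, held 6 CpG sites and 1 copy of the word.

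The fall in *Slit3*, which encodes a secreted ligand of ROBO receptors, was a region of 227 bp (chr11:35416803-35417029) with a WT count of 113, a TCKO count of 12 and a ratio of -2.46 (-3.36 to -1.67). In *Sox6*, which encodes an SRY-related transcription factor of cartilage and other tissues, the region chr7:115754329-115754578 fell from 199 to 24 counts (-2.31, interval -2.94 to -1.73). The third, chr7:130678469-130678689, held 214 and 26 counts (-2.30, interval -2.91 to -1.74) and lay in *Tacc2* as well as in the annotated span of *Fgfr2*. The next falls were in *Foxp1*, a forkhead transcription factor gene, with 114 and 14 counts, in *Lama2*, which encodes a laminin chain, with 207 and 29, and in *Wwox*, which encodes a WW-domain oxidoreductase, with 182 and 27. The 6 regions were intronic and were called as peaks in WT only. They were chosen for their ratio, so these values describe them and test nothing.

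Intronic *Lrp1b*, which encodes a very large LDL-receptor-like protein, had the largest rise among regions whose higher count reached 100, from a WT count of 30 to a TCKO count of 142 at chr2:42059912-42060377, a ratio of 2.92 (2.40 to 3.52). In *Mast4*, a microtubule-associated kinase gene, chr13:103102546-103102964 held 38 and 170 counts (2.85, interval 2.37 to 3.38) and was 5.91 kb from the nearest start. An annotated exon of *Kirrel3*, a gene of an immunoglobulin-family adhesion protein, gave 25 and 105 counts at chr9:34510086-34510471 (2.74, interval 2.16 to 3.41). Further intronic rises were in *Grm8* (64 and 253 counts), a glutamate receptor gene, and *Rgs6* (82 and 294), a regulator of G-protein signalling. The bZIP word was found in 5 of the 6 largest rises and in none of the 6 falls, but the same contrast had chosen both sets. At the other end of the count scale, the *Smyd3* region (chr1:179041401-179042662, 1262 bp) held 4249 and 2101 counts, a ratio of -0.30 (-0.37 to -0.22), which was -0.09 after a loess fit of the ratio on the count.

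Over all 15555 regions, accessibility in TCKO lay slightly above the level of the whole table. The median ratio was 0.18 (0.16 to 0.19), which is 0.11 above the median of all regions. Outside promoters, the median was 0.04 (0.04 to 0.05) for 49076 regions in genes of 100 to 500 kb, 0.08 (0.08 to 0.09) for 33689 in genes of at most 100 kb and 0.13 (0.12 to 0.13) for 110069 outside protein-coding genes. Thus the regions in very long genes stood highest of the 4 distal classes, and those in the next length class stood lowest. Regions at least 2-fold lower in TCKO numbered 797 (5.12%, interval 4.79% to 5.48%), against 4.51% of all regions. Regions at least 2-fold higher numbered 2736 (17.6%, interval up to 18.2%), against 12.3% of all regions. In genes of 100 to 500 kb the shares were 5.90% lower and 11.6% higher, and outside genes they were 4.57% and 14.7%. The falls were therefore near the background of the table and the rises above it. Falls with an interval wholly past 2-fold numbered 97 (0.624%), against 0.654% of all regions, and rises 932 (5.99%), against 3.82%.

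The split between falls and rises depended on the scaling. With no scaling of the deeper WT library, 3987 regions were at least 2-fold lower and 794 higher, and with a scaling to the background depth of the peak lists the numbers were 3166 and 961. These scalings shifted the median of all regions to -0.64 and -0.54. With no scaling, 25.6% of the long-gene regions and 25.6% of all regions were at least 2-fold lower, and 5.10% against 3.17% were higher, so the surplus over the table was again in the rises. Values relative to the median of all regions are used below where genes are called lower or higher.

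Long-gene regions were also shorter of reads. Their median width was 222 bp (243 bp for all regions) and their median count 64 in WT and 48 in TCKO (86 and 60 for all). They summed to 2083645 counts in WT and 1376968 in TCKO, out of 56898657 and 34608167. All regions were cut into 5 classes of equal size by count. In the lowest class the median ratio was 0.21 for long genes and 0.05 for genes of 100 to 500 kb, in the middle class 0.23 and 0.09, and in the highest -0.00 and -0.07. The gap between these length classes was thus present at each count level, but the members with the most counts lay below the median of the table. Regions outside genes stood closer to long genes, at 0.18 in the lowest class, 0.19 in the middle class and -0.04 in the highest. By GC content, the long-gene median went from 0.31 in the class of 5 with the least GC to 0.04 in the class with the most. Regions outside genes went from 0.28 to 0.02, so at equal GC the difference from regions outside genes was small. After removal of the median in 20 GC classes, the medians were 0.07, -0.04, 0.02 and 0.03 for the 4 distal classes in order of decreasing gene length, with regions outside genes last.

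**Figure D1:**
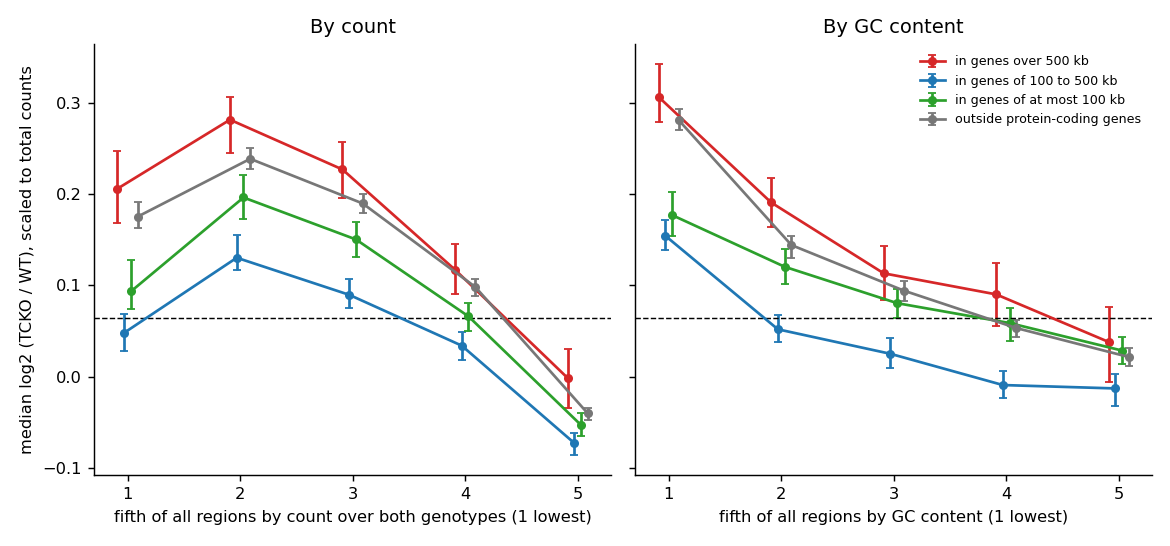
Median log2 ratio of TCKO over WT (y axis, scaled to total counts) for distal regions in 5 classes of all regions by count (left) and by GC content (right), with 95% order-statistic intervals. Red points are regions in genes over 500 kb, the other colours the 3 other distal classes, and the dashed line is the median of all regions at 0.06. Red lies above blue in every class, and both are lowest in the class with the most counts and in the class with the most GC.

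Peak calls were more often made in 1 genotype alone than in the whole table. In long genes 8092 regions (52.0%) were called in both genotypes, 5384 (34.6%) in WT only and 2079 (13.4%) in TCKO only. The share called in TCKO only was 9.89% in genes of 100 to 500 kb, 9.82% in shorter genes, 11.8% outside genes and 10.2% of all regions. Calls in WT only made up 36.2% in genes of 100 to 500 kb, 35.5% in shorter genes, 33.7% outside genes and 33.0% of all regions. Calls in both made up 56.8% of all regions. Both kinds of single-genotype call were thus more frequent in long genes than in the whole table, by more for TCKO than for WT. Against the 2 shorter gene classes, only the calls in TCKO only were more frequent in long genes, and those in WT only were less frequent. Calls and counts come from the same reads, so these are not separate evidence. Of the 2736 regions at least 2-fold higher 1677 were called in TCKO only, and of the 797 at least 2-fold lower 667 in WT only. Such regions are in the table only through the peak of the genotype where they are high.

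CpG sites and the bZIP word went with the ratio in opposite directions. Of the long-gene regions, 20.3% (3166) held no CpG site, against 15.7% of all regions, and their median ratio was 0.40 (0.36 to 0.44) with 26.3% at least 2-fold higher. The 5965 regions with 1 or 2 CpG sites had a median of 0.28, the 2990 with 3 or 4 had 0.13, the 2540 with 5 to 9 had -0.04 and the 894 with 10 or more had -0.23 (-0.27 to -0.18). In the last class 9.84% of regions were at least 2-fold lower and 1.23% higher. Calls in TCKO only made up 24.8% of regions with no CpG site and 1.89% of those with at least 5. Calls in WT only made up 43.0% and 21.5%. Such regions are in the table only through the peak of 1 genotype, so these medians and shares are not free of the calls. Regions with more CpG sites also had more reads, with a WT median of 38 counts at 0 sites and 374.5 at 10 or more. Within the middle class by count, where WT medians ran from 75 to 103, the medians were 0.51, 0.33, 0.20, -0.16 and -0.31 over the same 5 classes. The other distal regions showed the same order, from 0.33 with no CpG site to -0.17 with 10 or more. Hence the fall with CpG number was not particular to long genes.

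TGANTCA, searched on both strands in the central 200 bp, was found in 4270 long-gene regions (27.5%), against 23.6% of all regions, 23.9% in genes of 100 to 500 kb and 26.4% outside genes. Regions with it had a median of 58 TCKO counts and 61 WT counts and a median ratio of 0.53 (0.49 to 0.56). Those without it had 44 and 65 counts and a ratio of 0.05 (0.04 to 0.07). At least 2-fold rises made up 28.1% of the regions with the word and 13.6% of those without, and falls 1.62% and 6.45%. Calls in TCKO only made up 18.2% of regions with the word and 11.5% of those without, and calls in WT only 19.7% and 40.3%. Regions called in 1 genotype are in the table only through that peak, so these shares are not free of the calls. In other distal regions the medians with and without the word were 0.44 and -0.00. The difference held at each count level, from 0.79 against 0.06 in the lowest class to 0.18 against -0.08 in the highest. By contrast, 2 other words were nearly neutral. TGTGGTT, the core that RUNX factors bind, was in 9.05% of long-gene regions, whose median was 0.14 against 0.18 without it, and GGAATG, the core that TEAD factors bind, was in 18.4%, with 0.20 against 0.17. A match is a stretch of letters and does not show binding.

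**Figure D2:**
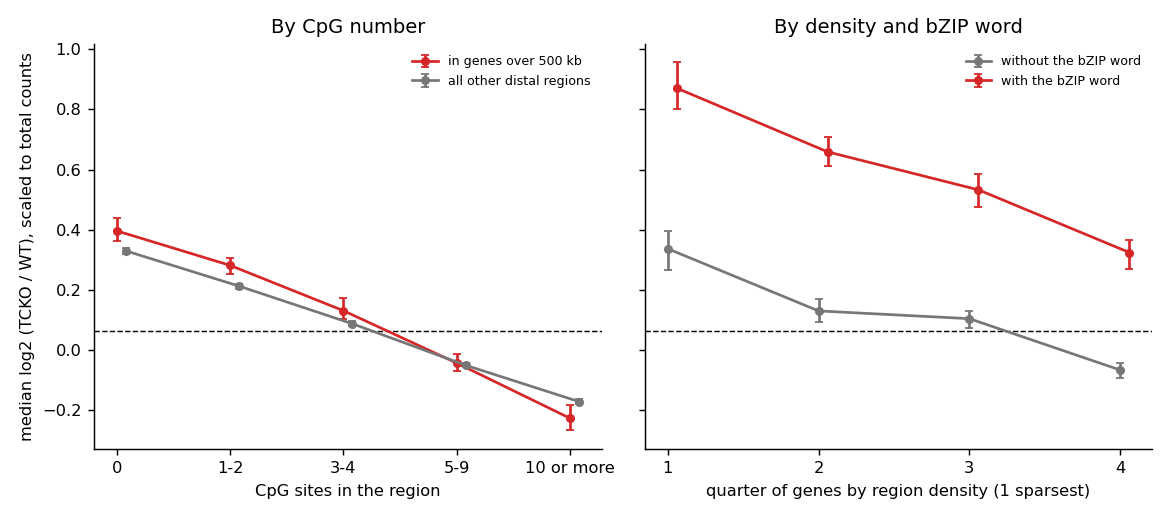
Median log2 ratio of TCKO over WT with 95% order-statistic intervals by the number of CpG sites in a region (left) and by the region density of the gene (right, in 4 classes of genes, 1 the sparsest). In long genes (red, left) the median falls from 0.40 with no CpG site to -0.23 with 10 or more, beside other distal regions (grey). On the right, regions with the bZIP word (red) lie above those without it (grey) in each class, and both fall towards dense genes.

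The genes themselves differed widely. There were 218 autosomal genes of over 500 kb, with *Edil3* (501.8 kb) just inside the limit and *Pde1c* (499.3 kb) just outside. All but *Skint5* held a member region, and 215 held at least 10. A gene held 6 to 673 regions (median 65), or 1.28 to 20.7 per 100 kb (median 8.54). When counts were summed over a gene's regions, ratios ran from -0.37 to 1.12 with a median of 0.24 and an SD over genes of 0.28. Of the 215 genes 166 lay above the median of all regions and 49 below. Unlike that median, a summed ratio weights regions by their counts, and that of the whole table is 0 under this scaling. Against 0, 33 genes lay below. The interval lay wholly above it for 148 genes, wholly below for 38 and held it for 29. Among 1803 genes of 100 to 500 kb with at least 10 regions, the median was 0.06 and 51.7% lay below, against 22.8% of the long genes. The share of regions at least 2-fold higher was above that of the whole table (12.3%) in 166 genes, and the share at least 2-fold lower was above that of the whole table (4.51%) in 85. No gene lacked a region at least 2-fold higher, and 28 lacked one at least 2-fold lower. Still, only 8.64% of the variance of the region ratios lay between genes, and the SD over regions, 0.82, exceeded the 0.31 that counting error gives.

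Gene ratio and region density ran against each other. Over the 215 genes Spearman's rho was -0.69 and Pearson's r with log2 density -0.69. This is a description over genes that share both libraries, and counts and GC content rose with density. From the 54 sparsest to the 54 densest genes, the median WT count of a region went from 44 to 83 and its median GC content from 43.8% to 48.4%. The ratio itself had a rho of -0.72 with the genes' median WT count, -0.44 with GC content and 0.18 with length. WT counts are also the denominator of the ratio, so the first of these is not free of it. With density counted from WT peaks alone rho was -0.72, and from TCKO peaks alone -0.64. In the 54 sparsest genes, with up to 4.99 regions per 100 kb, the median gene ratio was 0.52, 31.5% of regions were at least 2-fold higher and 3.12% lower, and only 3 genes lay below the median of all regions. In the 54 densest, with at least 12.03 per 100 kb, the median was 0.02, 11.4% were higher and 6.67% lower, and 33 genes lay below. Per kb of gene, the sparse genes had a median of 2.59 WT counts and 3.68 scaled TCKO counts, and the dense genes 24.1 and 24.1. The difference was also there at equal counts, since in the middle class by count the median region ratio was 0.48 (0.41 to 0.58) in sparse genes and 0.06 (0.02 to 0.11) in dense ones. Regions with the bZIP word had a median of 0.87 in sparse and 0.32 in dense genes, and regions without it 0.34 and -0.07. In genes of 100 to 500 kb the relation had the same sign (rho -0.45).

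**Figure D3:**
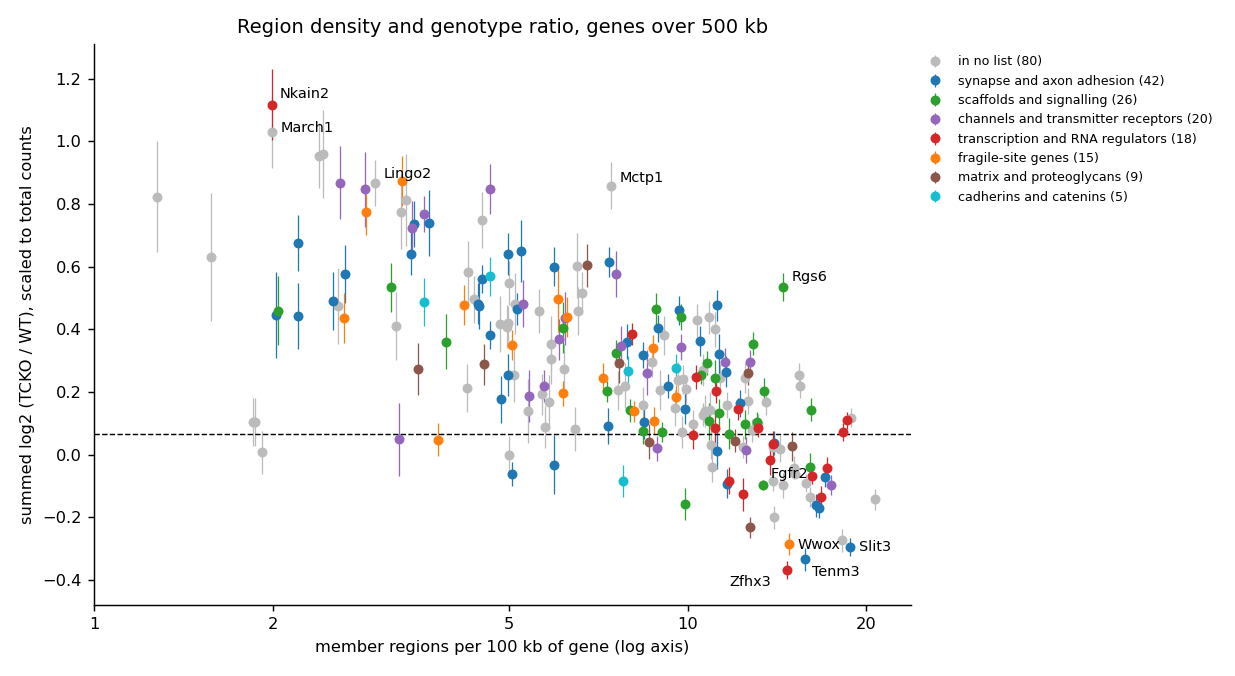
Summed log2 ratio of TCKO over WT (y axis, scaled to total counts) against member regions per 100 kb (x axis, log scale) for the 215 genes with at least 10 regions. Bars are 95% Wilson intervals, colours mark the gene lists with their numbers of genes, and the dashed line is the median of all regions. The ratio falls from sparse genes such as Nkain2 (1.12) to dense genes such as Zfhx3 (-0.37), and Rgs6 and Mctp1 lie above other genes of their density.

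The lowest ratios belonged to genes dense in regions. *Zfhx3* (ENSMUSG00000038872, chr8:107942644-108961630), which encodes a homeodomain and zinc-finger transcription factor, held 150 regions with 28757 WT and 13548 TCKO counts, a ratio of -0.37 (-0.40 to -0.34), and 17 of them were at least 2-fold lower and 8 higher. *Tenm3* (ENSMUSG00000031561, chr8:48227682-48843951), which encodes a teneurin, a transmembrane adhesion protein of neural wiring, followed at -0.33 (17072 and 8234 counts). *Slit3* (ENSMUSG00000056427, chr11:35121224-35708507) had the highest WT level of these genes, 47.6 counts per kb against 38.8 scaled in TCKO, and a ratio of -0.30 (27948 and 13853 counts). In *Wwox* (ENSMUSG00000004637, chr8:114439655-115352708) 25 of 135 regions were at least 2-fold lower and 5 higher, at -0.29 (20241 and 10101 counts). *Thsd4* (ENSMUSG00000032289, chr9:59966931-60522046), whose product is a matrix protein of fibrillin microfibrils, had 19 of 101 regions lower and 5 higher, at -0.27.

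*Gpc6* (ENSMUSG00000058571, chr14:116925315-117976544), a gene of a glypican, a heparan sulfate proteoglycan at the cell surface, had a ratio of -0.23 with 17 regions lower and 14 higher. *Enox1* (ENSMUSG00000022012, chr14:77156763-77721760), a gene of a cell-surface oxidase, stood at -0.20, and at -0.11 without its strongest region, which held 16.5% of its WT counts. *Tenm4* (ENSMUSG00000048078, chr7:96171246-96911093), another teneurin gene, stood at -0.17 (19928 and 10774 counts) with 5 regions lower and 7 higher. Neighbours in this order mostly could not be separated, since the intervals of *Tenm3* (-0.37 to -0.30), *Slit3* (-0.32 to -0.27), *Wwox* (-0.32 to -0.25) and *Thsd4* (-0.31 to -0.24) overlapped.

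The highest ratios belonged to sparse genes with few counts. *Nkain2* (ENSMUSG00000069670, chr10:31689310-32890462), which encodes a membrane protein that interacts with the sodium pump, held 24 regions with 1100 WT and 1451 TCKO counts, a ratio of 1.12 (1.004 to 1.23). 14 of its regions were at least 2-fold higher and 0 lower. Of the 24 regions 9 were called in TCKO only, so these are in the table only through their TCKO peak. *March1* (ENSMUSG00000036469, chr8:65617900-66471637), a gene of a membrane-bound ubiquitin ligase that acts on MHC class II, had 1124 and 1396 counts (1.03) and *Zfp804b* (ENSMUSG00000092094, chr5:6769010-7344756), a zinc-finger protein gene, 753 and 891 (0.96). In *Ralyl* (ENSMUSG00000039717, chr3:13471655-14182287), which encodes an RNA-binding protein, a single region held 40.9% of the 1347 WT counts, and the ratio was 0.95 with it and 1.15 without it. Calls in TCKO only made up 3 of 17 regions in *March1*, 4 of 14 in *Zfp804b* and 4 of 17 in *Ralyl*. Calls in WT only numbered 3, 3 and 5.

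*Csmd3* (ENSMUSG00000022311, chr15:47580637-48792063), a gene of a large transmembrane protein with CUB and sushi domains, stood at 0.87 (2340 and 2607 counts). *Grik2* (ENSMUSG00000056073, chr10:49094833-49788766), which encodes a kainate receptor subunit, also stood at 0.87 with 7 of 18 regions higher and 0 lower. *Lingo2* (ENSMUSG00000045083, chr4:35706647-36951747), a gene of a leucine-rich repeat membrane protein of neurons, reached 0.87 (2896 and 3214 counts), and 25 of its 37 regions (67.6%) were at least 2-fold higher with 1 lower. However, 18 of the 37 regions were called in TCKO only and are in the table only through their TCKO peak. *Mctp1* (ENSMUSG00000021596, chr13:76384535-77031810), which encodes a calcium-binding C2-domain protein, was the densest of these at 7.42 regions per 100 kb and had 22 of 48 regions higher (0.86). Calls in TCKO only made up 10 of 40 regions in *Csmd3*, 6 of 18 in *Grik2* and 11 of 48 in *Mctp1*. Calls in WT only numbered 13, 3 and 11 in these genes. The intervals from *March1* (0.92 to 1.14) to *Grik2* (0.75 to 0.99) overlapped. Without the strongest region of each gene, the ratio was lower in *March1* (0.82), *Zfp804b* (0.88), *Grik2* (0.76) and *Mctp1* (0.82). It was higher in *Nkain2* (1.27), *Csmd3* (0.96) and *Lingo2* (1.12).

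**Figure D4:**
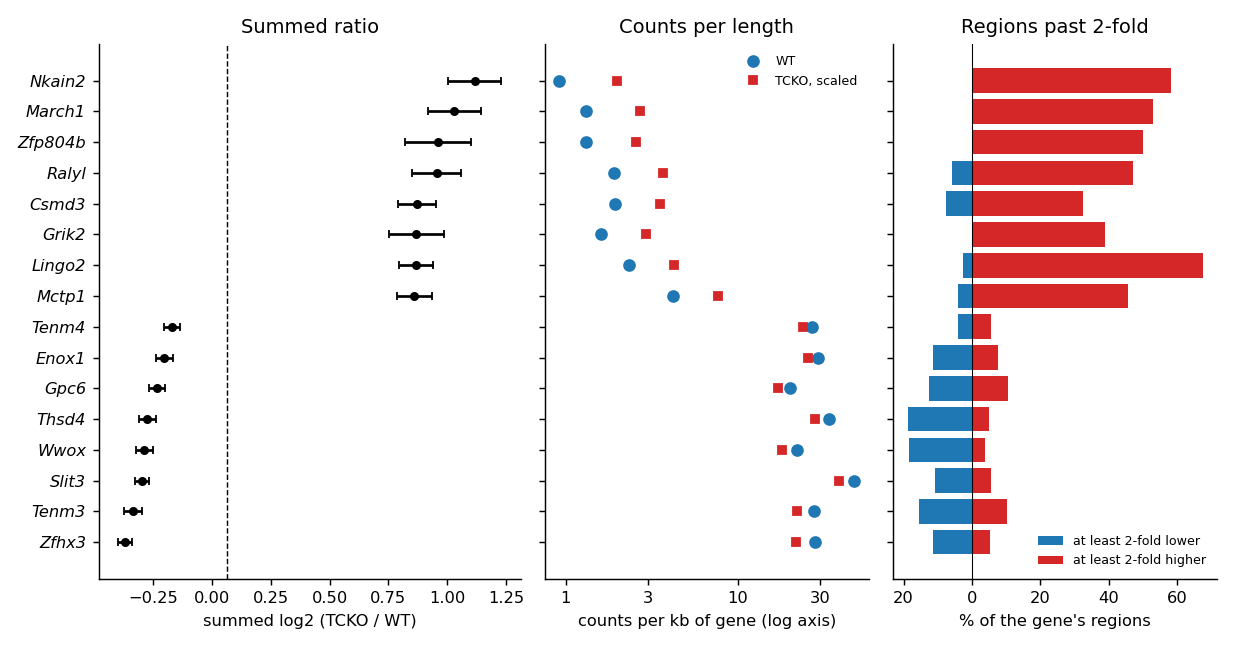
The 8 genes with the highest and the 8 with the lowest summed ratio, showing log2 of TCKO over WT with 95% Wilson intervals (left, dashed line at the median of all regions), counts per kb of gene in WT and scaled TCKO (middle, log axis) and the percentage of each gene's regions at least 2-fold lower or higher (right). The high genes have 0.92 to 4.21 WT counts per kb and the low genes 20.2 to 47.6.

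Along the genes the ratio did not sit in one place. In *Lingo2* and *Nkain2* regions past 2-fold were spread over the whole length, and in *Wwox* falls were found from the first to the last part of the gene among regions near 0. Over all long genes cut into 10 parts of equal length, the median was between 0.14 and 0.22 in all parts but the last, where it was 0.09 (0.03 to 0.13). It was 0.12 for the 644 regions at 5 to 10 kb from the nearest transcript start and 0.34 (0.24 to 0.45) for the 672 regions over 500 kb away, where 26.5% were at least 2-fold higher, but WT medians also fell from 77 to 48 counts. Ratios of neighbouring regions were related only over short distances, with r of 0.39 over 1967 pairs within 1 kb and of 0.12 or less in the wider classes. Nearby regions share fragments and may be parts of 1 element. Of the 215 genes, 95 had the lower ratio in the first part up to the middle of the gene and 120 in the second. By annotation of the midpoint 15266 regions were intronic (median 0.18), 191 lay in a coding or other exon (0.08, interval -0.06 to 0.22) and 98 in a UTR (0.02, interval -0.10 to 0.19). The few exonic regions could thus not be separated from the intronic ones.

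**Figure D5:**
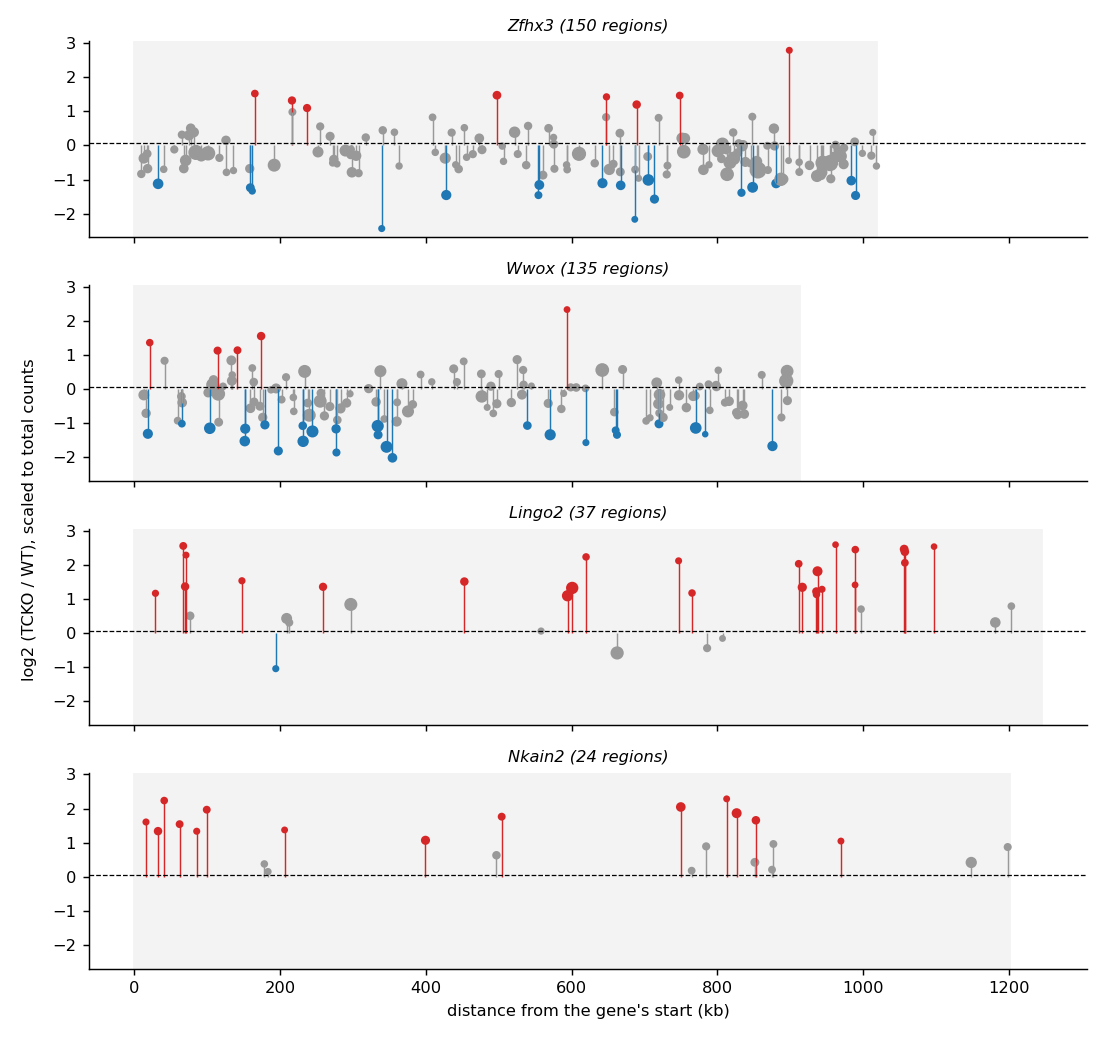
Log2 ratio of each member region (y axis, scaled to total counts) against its distance in kb from the gene's start for Zfhx3, Wwox, Lingo2 and Nkain2. Grey shading spans the gene, red and blue points are regions at least 2-fold higher or lower, point size grows with the count and the dashed line is the median of all regions. Blue points are spread along Wwox (25 of 135 regions) and red points along Lingo2 (25 of 37, with 18 of the 37 called as peaks in TCKO only).

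By role, most lists lay above the median of all regions, and the list of transcription and RNA regulators was split around it. Over all 215 genes 166 lay above and 49 below, with a median gene ratio of 0.24. Of their regions 17.5% were at least 2-fold higher and 5.11% lower. The shares of genes above in the synapse, channel and cadherin lists were near that of all long genes, as was that of genes in no list. Genes of synapse and axon adhesion proteins were the largest list, with 42 genes of at least 10 regions. Of these 32 lay above the median of all regions and 10 below, the median gene ratio was 0.36 and 19.1% of their regions were at least 2-fold higher and 4.84% lower. *Lrrtm4* (ENSMUSG00000052581), which encodes a postsynaptic leucine-rich repeat protein, was the highest at 0.74 (1413 and 1436 counts), and *Tenm3* the lowest. Of the 29 regions of *Lrrtm4* 11 were called in TCKO only and 10 in WT only. The Slit receptor gene *Robo1* (-0.09) lay below the median of all regions, and *Robo2* stood at -0.03 with and 0.14 without its strongest region, which held 21.5% of its WT counts. By contrast, *Dcc* (0.74) and *Unc5d* (0.65), which encode netrin receptors, lay above. Of the neurexin superfamily genes, *Nrxn3* (0.47) and *Cntnap2* (0.56) were above. These were named after their values were seen, as were the further genes given only with a ratio in this part.

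Channel and transmitter receptor genes numbered 20, with 16 above and 4 below and a median of 0.34. *Cacna1c* (ENSMUSG00000051331, chr6:118587240-119196418), the gene of the L-type calcium channel of muscle, neurons and osteoblasts, held the most counts of the list (23344 and 13275) and had the lowest ratio, -0.10 (-0.13 to -0.07), with 9 regions lower and 9 higher. Of the glutamate receptor genes, *Grik2*, *Grid1* (0.35), *Grm7* (0.37) and *Grm8* (0.85) lay above and *Grm5* stood at 0.05 with and 0.35 without a region that held 29.9% of its WT counts. In the cadherin and catenin list 4 of 5 genes were above, among them *Ctnna2* (ENSMUSG00000063063, 9843 and 7252 counts, 0.28), the neural alpha-catenin, and *Cdh18* (ENSMUSG00000040420), the highest at 0.57. Of the 43 regions of *Cdh18* 17 were called in TCKO only and 7 in WT only. *Cdh13* (ENSMUSG00000031841), a GPI-anchored cadherin, lay below at -0.08 (8303 and 4767 counts).

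Among 26 scaffold and signalling genes 23 were above and 3 below, and the median was 0.20. *Rgs6* (ENSMUSG00000021219, chr12:82588292-83162056) was the highest at 0.54 (8113 and 7153 counts, 25 of 83 regions higher), and *Arhgap15* (ENSMUSG00000049744), a Rac GTPase-activating protein gene, the lowest at -0.16. *Pde4d* (ENSMUSG00000021699, chr13:108449948-109953461), a cAMP phosphodiesterase gene, stood at 0.25 over 158 regions, and *Prkg1* (ENSMUSG00000052920, chr19:30564489-31765033), the cGMP-dependent kinase, at 0.10 over 157. *Dlg2* (ENSMUSG00000052572, chr7:90476672-92449247), a synaptic scaffold, stood at 0.20 over 144.

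Genes of transcription and RNA regulators were split around the median of all regions, with 9 above and 9 below and a median of 0.07. Among those below, *Npas3* (0.062) and *Mecom* (0.034) had summed ratios above the 0 of the whole table, so the split depends on the reference. They were also the densest list, at a median of 12.8 regions per 100 kb against 8.54 over all genes. *Auts2* (ENSMUSG00000029673, chr5:131437333-132543344), whose product acts with Polycomb proteins, held 30945 and 17954 counts over 179 regions, a ratio of -0.07, and ranged from -1.97 to 3.71 between regions. *Rora* (-0.13), *Esrrg* (-0.13), *Zbtb20* (-0.08) and *Sox6* (-0.02) lay below the median of all regions and *Rbfox1* (0.39), a splicing factor gene, above. *Nkain2* had been put in this list although it encodes a membrane protein. Without it 9 of 17 genes lay below, the median was 0.06 and the range was -0.37 to 0.39, with 11.95% of regions at least 2-fold higher and 5.78% lower, close to the shares of the whole table.

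Of 15 genes listed as lying at fragile sites, 13 were above and 2 below, with a median of 0.34. *Fhit* (0.34), *Immp2l* (0.24) and *Macrod2* (ENSMUSG00000068205, chr2:140395309-142392966; 18182 and 12177 counts, 0.14) were above, and *Wwox* was the 1 gene of the list whose interval lay wholly below. Of the matrix and proteoglycan genes 5 lay above and 4 below, from *Gpc6* to *Thsd7b* (ENSMUSG00000042581, 3554 and 3286 counts, 0.60), a thrombospondin-repeat gene. *Lama2* combined 11 regions lower with 9 higher among 55 and summed to 0.04, or to 0.12 without its strongest region. The 80 genes in none of the lists had 64 above and 16 below, and a median of 0.22.

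Among the genes with the most regions, the annotated length itself came from unusual transcripts in 3 cases. *Gm20388* (ENSMUSG00000092329, chr8:119910841-124345722) held 673 regions, but it is a readthrough model over 71 other protein-coding genes, and its ratio was -0.06. *Fgfr2* (ENSMUSG00000030849, chr7:130162451-133123350), the gene of an FGF receptor of skull bone, held 397 regions at -0.10 in an annotated span that covers 29 other genes. *Gm37240* (ENSMUSG00000102805, chr3:84496426-85887518) held 183 regions at 0.10 over 6 others. *Rbms3* (ENSMUSG00000039607, chr9:116572746-117629913), an RNA-binding protein gene that spans no other protein-coding gene, held 167 at -0.09, with 15 regions lower and 15 higher. Of all member regions, 831 (5.34%) also lay in a second protein-coding gene and 92 lay in more than 1 of the long genes.

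Markers of cell types were read from promoter counts. All 7 osteoblast markers had an accessible promoter, with 93 to 1768 WT counts, and summed to 5663 in WT and 3173 in TCKO, a ratio of -0.12 (-0.18 to -0.06). Of the macrophage or osteoclast markers 3 of 4 had one, with *Ptprc* at 0, and they summed to 588 and 512 (0.52, interval 0.35 to 0.69). All 3 endothelial markers had one and summed to 581 and 457 (0.37, interval 0.19 to 0.55), but they did not move together, with 339 and 162 counts at *Tek*, 185 and 221 at *Pecam1* and 57 and 74 at *Cdh5*. The 5 neuronal markers summed to 1875 and 1204 (0.08, interval -0.03 to 0.18), and 0 of 3 muscle markers had one. The part that other cell types have in the long-gene rises was not tested. Regions over the *Tet1*, *Tet2* and *Tet3* genes had ratios of -0.16, -0.22 and -0.14, which do not check the deletion, since the floxed exons are not given in the labels.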

How the data were processed

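ATAC-seq was carried out on WT and TCKO primary osteoblasts. According to the study's methods, reads were aligned with STAR 2.7.0e to GRCm38, uniquely mapping reads were kept, replicates were merged and peaks were called with MACS2 (versions from the submitters' processing notes, which also name CASAVA). The labels name a directional RNA library kit, whereas the study's methods name a Tn5 transposase kit. Duplicate removal and a transposase shift are not given in the sources used here.

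The authors deposited raw read counts per region, 1 merged column per genotype. The authors also deposited peak lists with a fold enrichment (a ratio to local background) and the −log10 of the p-value, used here for calls in each genotype (overlap of at least 1 bp) and for a background depth. Because replicates were merged, no count test was run and no p-value was computed. Total counts were 56898657 (WT) and 34608167 (TCKO).

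TCKO counts were multiplied by 1.64 to the WT total and 1 was added for region ratios. Gene ratios used summed counts without that addition. Intervals of ratios at the 95% level are Wilson intervals for the share of TCKO counts and cover counting error only. Those of medians come from order statistics over regions, and those of shares of regions are Wilson intervals. Both treat regions as independent, although nearby regions were related, and none of the intervals covers the spread between replicates. A fold of 2 was the cutoff. Genes, transcript starts and exons came from GENCODE M21 and sequence from GRCm38. Named genes were the 10 with the most regions, the 8 lowest and 8 highest ratios among genes with at least 10 regions and 1000 counts, and in each role list the gene with the most counts, the lowest and the highest. Named regions were the 6 largest falls and 6 largest rises, taken from regions whose higher count reached 100, and the region with the most WT counts. Some items that fall under these rules are not reported here. The member regions, lists and rules were chosen with earlier results of these data known.

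Alternatives were TMM (edgeR 4.0.16) and DESeq2 1.42.0 factors in R 4.3.3, no scaling, the peak background, a loess fit (span 0.3, statsmodels 0.14.6), GC classes, 10 counts added, at least 50 counts, gene lengths over 300 and 1000 kb, 20 kb from a start, folds of 1.5 and 3, and regions or genes left out. Scripts used Python 3.11.15, pandas 2.3.3 and pysam 0.24.0 and were tested on simulated data.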

Additional observations from a re-analysis of the deposited data

How the results depend on the processing

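No paired analysis was possible because the deposited table holds 1 merged column per genotype, so no replicate could be left out or used as a block. The median ratio of the long-gene regions, 0.18, was 0.10 when scaled by TMM, 0.11 by DESeq2 size factors, 0.080 after loess, 0.065 after GC classes and 0.16 with 10 counts added. It reversed to -0.53 with no scaling and to -0.42 with the peak background, as the median of all regions did. Relative to all regions the median, 0.11, was 0.074 after loess, 0.065 after GC classes and 0.10 with 10 counts added. With no scaling 3987 regions were at least 2-fold lower and 794 higher, and with the peak background 3166 and 961. With 10 counts added 485 were lower. At 1.5-fold 2138 were lower and 4748 higher, at 3-fold 140 and 991, and with the interval wholly past 2-fold 97 and 932. Genes over 300 kb gave 29028 regions with a median of 0.13 (0.063 above all regions), 1610 lower, 4483 higher and 174 of 521 genes below the median of all regions. Genes over 1000 kb gave 5780 regions with 0.20 (0.13 above), 291, 1077 and 9 of 55 genes, so counts changed with the number of regions. Without the 6 genes that hold at least 5 others, an alternative chosen after seeing the data, the median was 0.19 (0.12 above). The other 38 values stayed within their intervals or within 1.5 times the count reported. Genes below the median of all regions numbered 49 in the main setting, 41 after loess, 68 after GC classes and 48 with 10 counts added. Single scaling factors shift every ratio and the median of all regions nearly alike. The loess fit turned neither the relative median nor any of the genes and regions named by rule. Named genes and regions were not run with GC classes or 10 counts added, so their directions under these are not known. The loess fit moved the relative ratio of 10 of these genes and regions past its counting interval. These were *Gm20388* (-0.12 to -0.048), *Fgfr2* (-0.162 to -0.113), *Auts2* (-0.13 to -0.087), *Pde4d* (0.189 to 0.222) and *Zfhx3* (-0.433 to -0.395). The others were *Slit3* (-0.360 to -0.310), *Gpc6* (-0.296 to -0.255), *Enox1* (-0.265 to -0.183), *Cacna1c* (-0.161 to -0.108) and the *Smyd3* region (-0.36 to -0.094). Regions held as few as 19 counts over both genotypes, which limits single ratios. The cause of the differences between scalings was not tested.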
